A study of Arabidopsis thaliana with 8 samples.

Results

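The loss of LHP1 was measured in plants that already lacked BPC4 and BPC6, by setting lhp1-4 bpc4 bpc6 shoots against bpc4 bpc6 shoots. The comparison rests on 4 of the 8 arrays of the series, chosen by the genotype in their labels: 2 arrays of lhp1-4 bpc4 bpc6, called the triple mutant here, and 2 of bpc4 bpc6. The other 4 arrays, 2 of lhp1-4 and 2 of wild type, show the same lesion with BPC4 and BPC6 present and are used only for the difference between the backgrounds. Plants of all 4 genotypes were of the accession Columbia (ecotype Col-0), untreated and 18 days old, raised in the greenhouse at a constant 20 °C, at 35% humidity and under 18 h of daily light. Each array was hybridised with RNA of whole shoots from a pool of 6 plants, and the titles call the arrays of a genotype biological replicates. The bpc4 and bpc6 lesions are carried by the triple mutant and by its reference alike, so by the labels only the lhp1-4 lesion separates them. Unlabelled differences between the pools cannot be told apart from it.

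LHP1 (LIKE HETEROCHROMATIN PROTEIN 1, also known as TERMINAL FLOWER 2) is a chromodomain protein that reads the histone methylation mark laid down by Polycomb complexes and takes part in keeping genes silent, among them regulators of flowering and of floral organs. BPC4 and BPC6 belong to class II of the BASIC PENTACYSTEINE proteins, which recognise GA-rich (GAGA) stretches of DNA. In its title the study names BPC6 as the factor that brings LHP1 to such stretches. The comparison therefore asks what the lesion in LHP1 still changes where these class II proteins are mutated as well.

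Features are named by probe set, since neither the values nor the gene table used here pairs a probe set with a gene. For the same reason the transcripts of LHP1, BPC4 and BPC6 and the markers of shoot tissue were not checked against the labels, and no gene, pathway or sequence is named. In whole shoots a lower signal from fewer cells of a type and from less RNA per cell cannot be told apart.

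Intensities were linear values, restored to one scale as described under the processing, and a level below is the geometric mean of a genotype's 2 arrays. Array medians ran from 54.7 to 58.3 over 22716 probe sets. The median difference between replicates, on the log2 scale, was 0.14 in the triple mutant, 0.11 in bpc4 bpc6, 0.10 in lhp1-4 and 0.15 in wild type. Precision is limited by having 2 arrays of each genotype, and the typical 95% interval of a log2 change between the triple mutant and bpc4 bpc6 reached 0.30 to either side. Calls are those of limma's moderated test, with p adjusted by Benjamini-Hochberg over all 22716 probe sets and a threshold of 0.05.

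In the triple mutant 2380 probe sets rose and 2483 fell against bpc4 bpc6, which is 10.5% and 10.9% of all tested and 21.4% together. Numbers of rises and falls were nearly even, but their sizes were not. Centring each array on its median gave 2220 rises and 2775 falls, so the near-even numbers depend on how the arrays are normalised. Most falls were small: 2042 of the 2483, or 82.2%, were under 2-fold, against 1474 of the 2380 rises, or 61.9%. Rises of at least 2-fold numbered 906 (3.99% of all tested) and falls 441 (1.94%). At 4-fold or more there were 257 rises (1.13%) and 81 falls (0.357%), and at 8-fold or more 81 rises (0.357%) and 14 falls (0.0616%). At 16-fold or more 18 rises (0.0792%) and 4 falls (0.0176%) were left. Rises outnumbered falls at each of these sizes from 2-fold up. The smallest called rise was 0.29 and the smallest called fall -0.27 on the log2 scale. For every called probe set both triple mutant arrays lay on the same side of both bpc4 bpc6 arrays. That separation alone is common: without regard to the test, both triple mutant arrays lay above both bpc4 bpc6 arrays in 23.4% of all probe sets and below them in 36.6%. The median log2 change of all probe sets was -0.05. Without bpc4 bpc6 replicate 2 the counts were 1481 rises and 1364 falls, and without bpc4 bpc6 replicate 1 the falls numbered 1558.

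**Figure D1:**
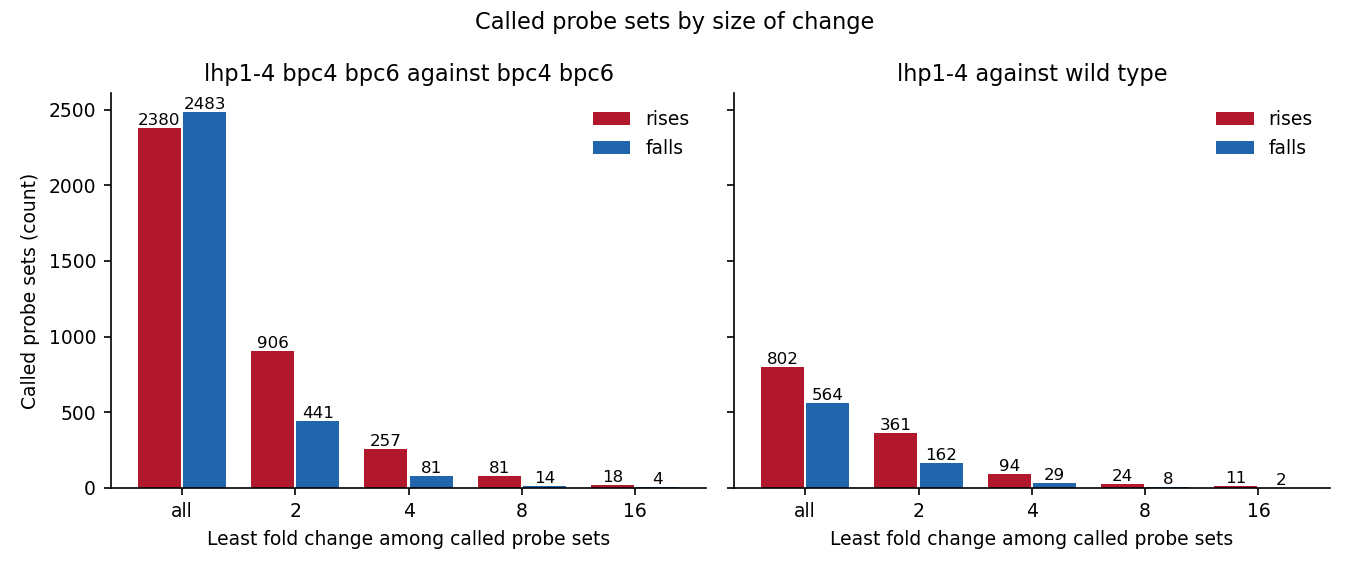
Called probe sets (limma adjusted p under 0.05) counted at every size and at a change of at least 2, 4, 8 and 16-fold, as bars for rises and falls. The left panel sets lhp1-4 bpc4 bpc6 against bpc4 bpc6, where 2380 rises and 2483 falls thin out to 18 and 4, and the right panel sets lhp1-4 against wild type, with fewer calls at each size.

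The largest rise was that of probe set 253161_AT. Its intensity was 1766 and 1354 on the triple mutant arrays, against 41.0 and 23.6 on the bpc4 bpc6 arrays. The lhp1-4 arrays had 134 and 83.8, against 56.3 and 72.7 on the wild type arrays. The triple mutant thus stood far above all 3 other genotypes, while every lhp1-4 value lay within 3-fold of every wild type value. The change from the lesion was 5.63 ± 0.33 on the log2 scale (SE, 2 arrays each) in the bpc4 bpc6 background (limma adjusted p = 0.000175). In the wild type background it was 0.73 ± 0.33 (limma adjusted p = 0.251).

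Probe set 256569_AT had the next largest rise and behaved differently in the wild type background. It measured 834 and 851 on the triple mutant arrays, against 19.9 and 16.3 on the bpc4 bpc6 arrays. In lhp1-4 it measured 434 and 355, against 24.9 and 22.3 on the wild type arrays. It was dim in both genotypes without lhp1-4 and bright in both with it, higher in the triple mutant than in lhp1-4. The change was 5.55 ± 0.14 on the log2 scale (SE, 2 arrays each) in the bpc4 bpc6 background (limma adjusted p = 2.03e-05) and 4.06 ± 0.14 in the wild type background (limma adjusted p = 0.000254).

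Among the falls 258419_AT came first. Its intensity was 58.0 and 28.9 on the triple mutant arrays, against 2843 and 2573 on the bpc4 bpc6 arrays. The lhp1-4 arrays had 89.3 and 146, against 1463 and 2767 on the wild type arrays. Both genotypes with lhp1-4 were low and both without it were high, with no overlap. Its log2 change was -6.05 ± 0.42 in the bpc4 bpc6 background (SE, 2 arrays each; limma adjusted p = 0.000298) and -4.14 ± 0.42 in the wild type background (limma adjusted p = 0.00358).

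Probe set 255298_AT showed the same order with tighter replicates. It measured 20.5 and 16.5 on the triple mutant arrays, against 795 and 817 on the bpc4 bpc6 arrays. Intensities in lhp1-4 were 71.4 and 78.9, against 717 and 574 on the wild type arrays. The fall was deeper in the bpc4 bpc6 background, at -5.45 ± 0.15 on the log2 scale (SE, 2 arrays each; limma adjusted p = 2.15e-05), than in the wild type background, at -3.10 ± 0.15 (limma adjusted p = 0.000254). The difference between both changes passed limma's interaction test, at -2.36 ± 0.21 on the log2 scale (adjusted p = 0.00821). For 258419_AT that difference was -1.91 ± 0.60 and did not pass (limma adjusted p = 0.179). With no scale restored 253161_AT would change by -4.33 and 258419_AT by 3.92, so both directions depend on that step.

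**Figure D2:**
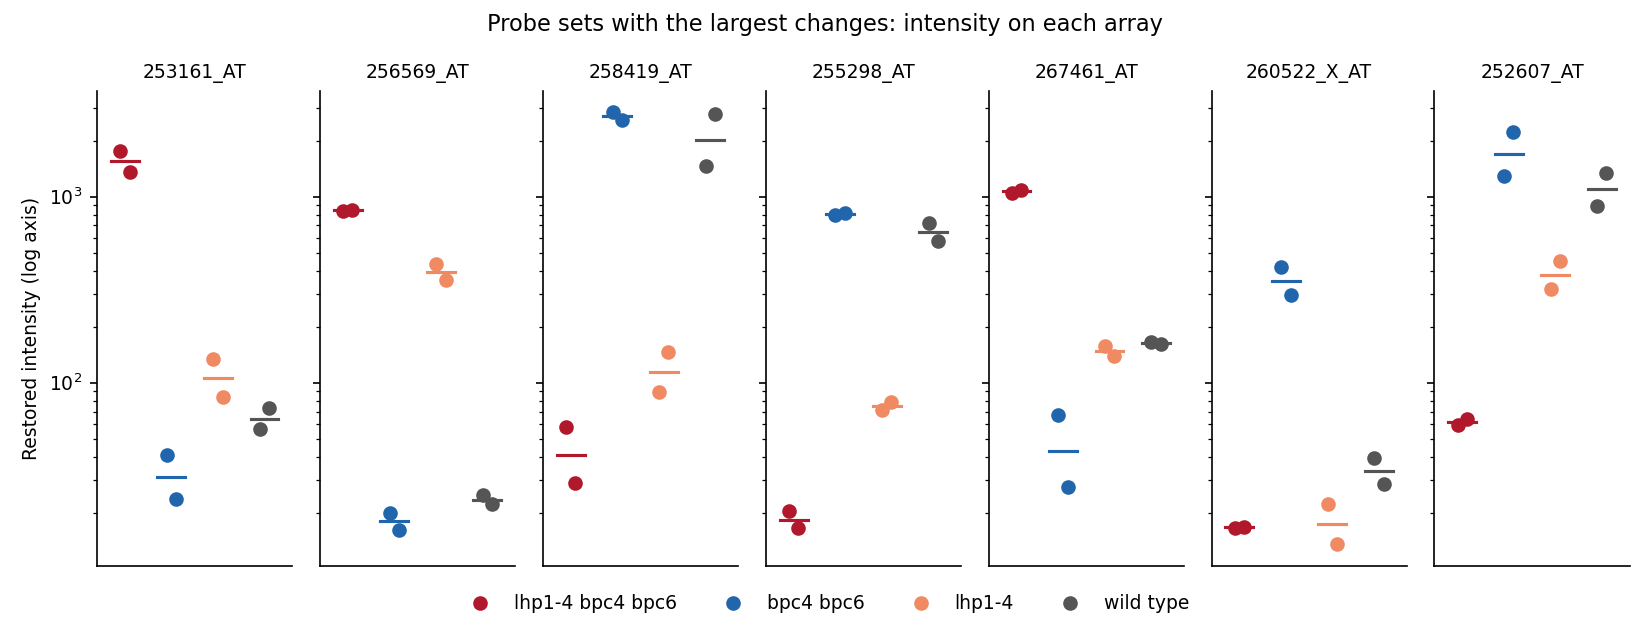
Restored intensity on a log axis for the 7 probe sets named in the text, 1 panel each, with 1 point per array and a line at the geometric mean of the 2 arrays of lhp1-4 bpc4 bpc6, bpc4 bpc6, lhp1-4 and wild type. In 253161_AT and 267461_AT only lhp1-4 bpc4 bpc6 lies above 1000, in 258419_AT and 255298_AT both lhp1-4 genotypes are low, and 260522_X_AT is high only in bpc4 bpc6.

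The size of the changes differed between dim and bright probe sets. Probe sets were split by their level in wild type, whose arrays take no part in the comparison, over the 17709 probe sets with a settled level. Among the 3342 with a wild type level under 20, 363 rose (10.9%) and 126 fell (3.77%). Among the 1325 with a wild type level of 1000 or more, 169 rose (12.8%) and 331 fell (25.0%). The share of falls was higher in each brighter class, with 9.05%, 11.9%, 14.3%, 19.0% and 24.4% in the 5 classes between them, while the share of rises stayed between 10.9% and 15.6%. Rises of at least 2-fold were more frequent among dim probe sets, with 6.88% of the dimmest class and 3.40% of the brightest. Of the 81 rises of at least 8-fold, 42 came from the class under 20 and 1 from the class of 1000 or more. The median rise was 1.34 on the log2 scale in the dimmest class and 0.68 in the brightest, while median falls were between -0.72 and -0.61 in all 7 classes. Precision moved with level too, as the median standard error was 0.16 in the dimmest class and 0.11 in the brightest. A dim probe set also has less room to fall than to rise, and 0 falls of at least 8-fold came from the class under 20. The parts of precision and of this limit in these shares were not tested.

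**Figure D3:**
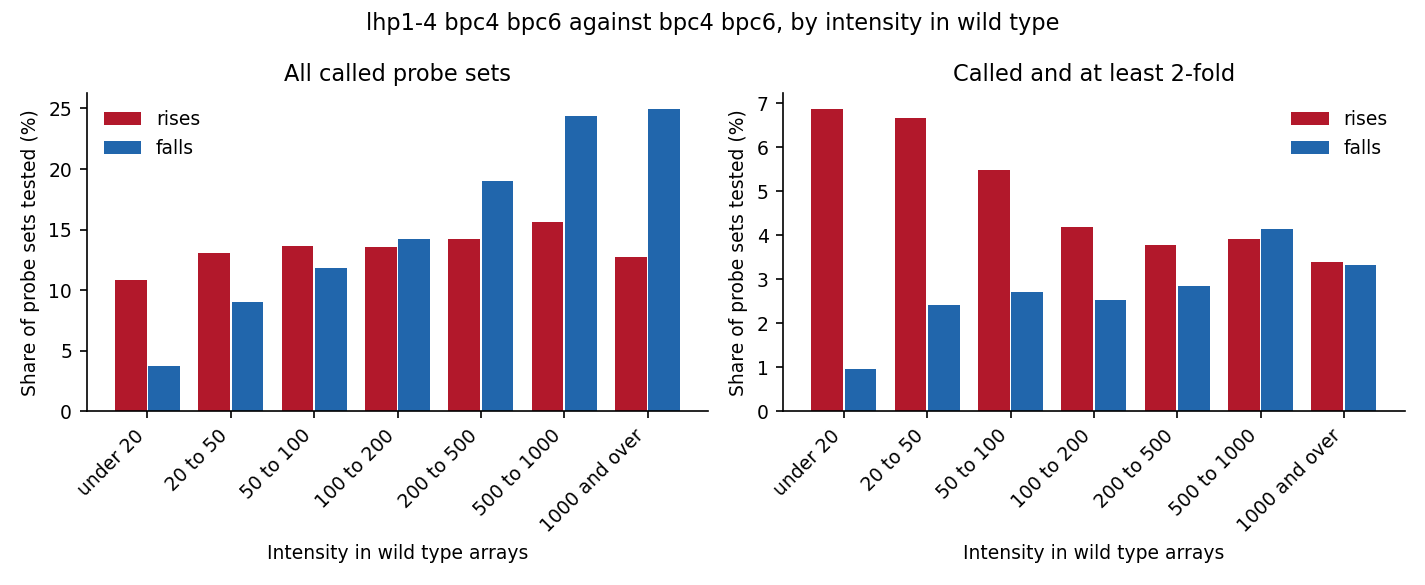
Share of probe sets in percent that rose or fell in lhp1-4 bpc4 bpc6 against bpc4 bpc6, in 7 classes of wild type intensity, for all called probe sets on the left and those changed at least 2-fold on the right. Falls make up 3.77% of the dimmest class and 25.0% of the brightest, and rises of at least 2-fold 6.88% and 3.40%.

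The strongest rises were mostly probe sets with little signal in the genotypes without lhp1-4. For the 81 rises of at least 8-fold the median level was 249 in the triple mutant, against 18.9 in bpc4 bpc6. It was 88.6 in lhp1-4, against 19.0 in wild type. Levels under 50 were found for 2 of the 81 in the triple mutant, 62 in bpc4 bpc6, 23 in lhp1-4 and 58 in wild type. Of all 17709 probe sets with a settled level, 6072 were under 50 in wild type. Choosing by a large rise from bpc4 bpc6 favours low levels in bpc4 bpc6. The median levels of bpc4 bpc6 and wild type thus lay close together, and lhp1-4 stood between them and the triple mutant. Their median log2 change was 3.57 in the bpc4 bpc6 background, by which they were chosen, and 1.96 in the wild type background. Of the 81, 57 were also called as rises in lhp1-4 against wild type, where 3.53% of all probe sets were, and 0 as falls. Both calls share their estimate of spread, which favours such overlap. The number of calls of lhp1-4 against wild type depended on single arrays: there were 802 rises with all arrays, but 188 without lhp1-4 replicate 1, 234 without lhp1-4 replicate 2 and 409 without wild type replicate 1. In 74 of the 81 both triple mutant arrays lay above all 6 other arrays, as they did in 12.2% of all probe sets. Being above bpc4 bpc6 is built into the choice. A choice by high triple mutant values also favours being above lhp1-4 and wild type, so this count is a description.

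Strong falls were fewer, and their bpc4 bpc6 levels were brighter than those of the strong rises. A fall of at least 8-fold needs a level well above the floor to start from, so this is in part built into the choice. The 14 falls of at least 8-fold had a median level of 28.6 in the triple mutant, against 408 in bpc4 bpc6. Their median was 80.7 in lhp1-4, against 336 in wild type. In all 14 both lhp1-4 arrays lay below both wild type arrays, a separation found in 40% of all probe sets. Of the 14, 10 were called as falls there, against 2.48% of all, and here too both calls share their estimate of spread. The 4 falls of at least 16-fold were 258419_AT, 255298_AT, 252607_AT and 260522_X_AT. In the first 3 of them both triple mutant arrays lay below all 6 other arrays, as they did in 16% of all probe sets. A choice by low triple mutant values favours this separation, so it is a description.

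A switch from little signal to a clear signal was seen in 10 of the 17709 probe sets with a settled level. These had a level under 20 in bpc4 bpc6, a level of at least 200 in the triple mutant and a call. The median of the 10 was 281 in the triple mutant, against 15.6 in bpc4 bpc6, a gap set by the choice. It was 115 in lhp1-4, against 20.3 in wild type. In lhp1-4, 3 of the 10 reached 200 and 0 were under 20, whereas in wild type 0 reached 200 and 5 were under 20. The reverse switch was found in 2 of the 17709 probe sets, 255298_AT and 260522_X_AT. For 260522_X_AT the level was 353 in bpc4 bpc6 but only 33.6 in wild type, so its bright state was that of bpc4 bpc6 alone.

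Most of the called changes went the same way on the lhp1-4 and wild type arrays, which share no array with the comparison, but fewer were called there. Called in the same direction there were 599 of the 2380 rises (25.2%, against 3.53% of all probe sets). For the 2483 falls this number was 378 (15.2%, against 2.48% of all). Calls in both backgrounds use the same estimate of spread for a probe set, so a small estimate favours a call in both. The shares of all also include the 5007 probe sets of unsettled level, which were seldom called in the comparison. Of the 2380 rises, both lhp1-4 arrays lay above both wild type arrays in 1649, or 69.3%, against 20.8% of all probe sets, and below them in 171, or 7.18%. Of the 2483 falls, both lhp1-4 arrays lay below both wild type arrays in 1750, or 70.5%, against 40% of all, and above them in 137, or 5.52%. With the choice made in the bpc4 bpc6 background, the rises had median levels of 223 in the triple mutant, against 109 in bpc4 bpc6, and of 165 in lhp1-4, against 117 in wild type. For the falls these medians were 145 in the triple mutant, against 238 in bpc4 bpc6, and 181 in lhp1-4, against 226 in wild type. In both directions lhp1-4 lay between the triple mutant and wild type. Opposite calls were rare: 12 probe sets rose in the bpc4 bpc6 background and fell in the wild type background, and 16 did the reverse. All of these passed the interaction test, which a choice by opposite calls on the same arrays all but fixes in advance.

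**Figure D4:**
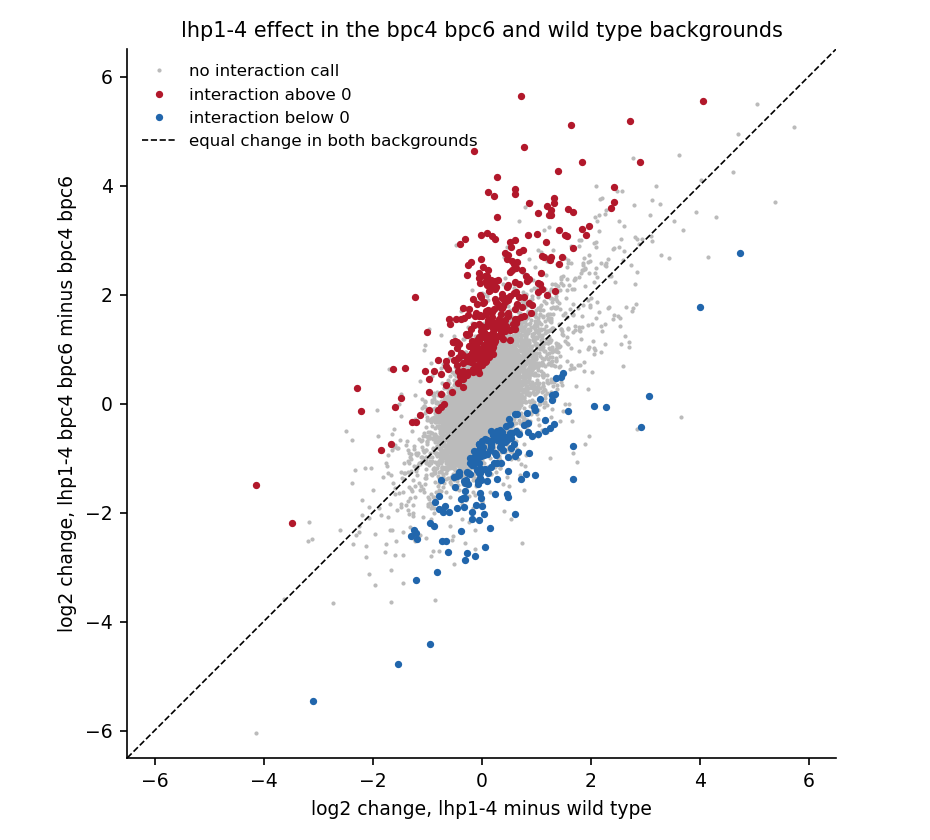
The log2 change of lhp1-4 bpc4 bpc6 against bpc4 bpc6 (vertical) plotted over that of lhp1-4 against wild type (horizontal), 1 point for each of 22716 probe sets, with interaction calls coloured and a dashed line where both changes are equal. The 349 calls above the line have a median of 0.10 on the horizontal axis, with quartiles of -0.16 and 0.48, and a median of 1.45 on the vertical axis. Choosing them by the interaction shapes these positions.

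Whether the lesion acted more strongly in the bpc4 bpc6 background was measured on probe sets chosen from both backgrounds together. The choice used the mean of both log2 changes, to which the triple mutant and lhp1-4 arrays contribute equally, as do the bpc4 bpc6 and wild type arrays. On this mean 2680 probe sets rose and 2804 fell (limma adjusted p under 0.05), 11.8% and 12.3% of all. The 2680 rises had a median log2 change of 0.74 in the bpc4 bpc6 background and 0.44 in the wild type background. The 2804 falls had medians of -0.59 and -0.34 in the same order. The median change was thus larger in the bpc4 bpc6 background in both directions. Over all probe sets the log2 change also spread wider there, with an interquartile range of 0.38 against 0.32. A choice on the mean favours the change with the wider spread. Of the 2680 rises 2040 were called in the bpc4 bpc6 background and 761 in the wild type background. The part of this choice in the medians was not tested. Quartiles were 0.48 and 1.23 against 0.24 and 0.79 for the rises, and -0.82 and -0.41 against -0.51 and -0.21 for the falls. The change in the bpc4 bpc6 background was the higher one in 75.1% of the rises and in 22.6% of the falls, compared with 53.5% of all probe sets. An interaction call above 0 was made for 294 of the rises and one below 0 for 22, together 11.8% of the 2680. Among the falls 113 were below 0 and 18 above, together 4.67% of the 2804. Of all probe sets 1.54% had a call above 0 and 0.792% one below, together 2.33%.

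That difference was not equally firm in both directions. With the choice made anew, leaving out wild type replicate 2 left medians of 0.71 and 0.51 for the rises but -0.47 and -0.45 for the falls, so the falls then barely differed between backgrounds. Without any of the other 7 arrays the median interaction was 0.31 to 0.40 for the rises and -0.33 to -0.24 for the falls. Centring of each array on its own median also brought the falls of both backgrounds closer, with medians of -0.54 and -0.39 and a median interaction of -0.17 in place of -0.25. The mean effect then had 2301 rises and 3865 falls, so rises made up 37.3% of calls in place of 48.9%. Without lhp1-4 replicate 1 the mean effect had 1717 rises and 1594 falls, and without lhp1-4 replicate 2 it had 1681 falls.

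**Figure D5:**
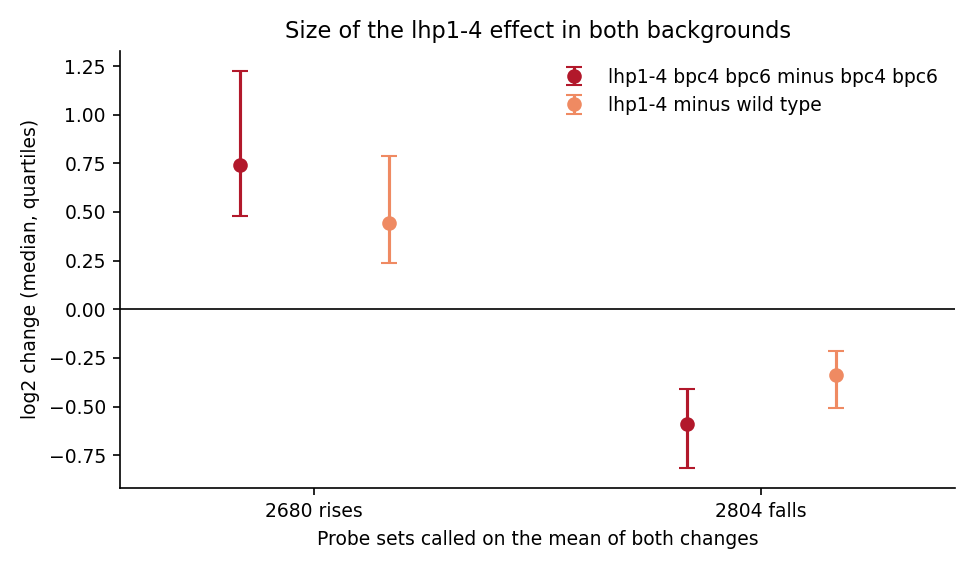
Median log2 change with quartiles (bars) for the 2680 rises and 2804 falls called on the mean of both changes, for lhp1-4 bpc4 bpc6 minus bpc4 bpc6 and for lhp1-4 minus wild type. The medians are 0.74 and 0.44 for the rises and -0.59 and -0.34 for the falls.

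For single probe sets the test of a difference between backgrounds is the interaction, the log2 change in the bpc4 bpc6 background minus that in the wild type background. It was called for 529 probe sets, 2.33% of all, of which 349 were above 0 (1.54%) and 180 below (0.792%). When only probe sets with a settled level and a mean intensity of at least 50 were tested, 462 were above 0 and 312 below. The 349 had median levels of 282 in the triple mutant, against 88.2 in bpc4 bpc6, and of 145 in lhp1-4, against 137 in wild type. Levels of all 4 genotypes enter the interaction by which these probe sets were chosen, so the order of the medians and the separations given here describe the choice and test nothing. In 294 of the 349 both triple mutant arrays lay above all 6 other arrays, against 12.2% of all probe sets. The 180 below 0 had median levels of 84.9 in the triple mutant, against 186 in bpc4 bpc6, and of 137 in lhp1-4, against 106 in wild type. Here bpc4 bpc6 had the highest median, and in 102 of the 180 both triple mutant arrays lay below all 6 others, against 16% of all probe sets.

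Among the 1769 rises of the bpc4 bpc6 background that had no call in lhp1-4 against wild type, 248 (14.0%) had an interaction call above 0, against 1.54% of all probe sets, and among the 2089 such falls 118 (5.65%) had one below 0, against 0.792% of all. Both choices used the same arrays as the interaction, so these shares are a description. For the remaining ones a difference between backgrounds was not called, although a call was made in only the bpc4 bpc6 background. In the other direction, 187 rises and 174 falls of lhp1-4 against wild type had no call in the bpc4 bpc6 background, and 21 (11.2%) and 17 (9.77%) of them passed the interaction test, below 0 and above 0 in that order. The number of interaction calls depended on single arrays. Leaving out triple mutant replicate 1 left 146, and replicate 2 left 230. Leaving out bpc4 bpc6 replicate 1 left 312, and replicate 2 left 148. For lhp1-4 replicate 1 the number was 106, for lhp1-4 replicate 2 it was 23, and for wild type replicate 1 it was 160.

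Probe set 267461_AT had the second highest interaction after 253161_AT. It measured 1046 and 1091 on the triple mutant arrays, against 67.2 and 27.6 on the bpc4 bpc6 arrays. The lhp1-4 arrays had 158 and 139, against 166 and 162 on the wild type arrays. It was low in bpc4 bpc6, high in the triple mutant and nearly level in lhp1-4 and wild type. The change was 4.63 ± 0.36 on the log2 scale (SE, 2 arrays each) in the bpc4 bpc6 background (limma adjusted p = 0.00041) and -0.14 ± 0.36 in the wild type background (limma adjusted p = 0.822).

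The lowest interaction was that of 260522_X_AT, whose intensity was 16.5 and 16.9 on the triple mutant arrays, against 421 and 296 on the bpc4 bpc6 arrays. In lhp1-4 it measured 22.3 and 13.6, against 39.6 and 28.6 on the wild type arrays. Only the bpc4 bpc6 arrays were bright, and the triple mutant was within the range of the lhp1-4 arrays. The change was -4.40 ± 0.28 on the log2 scale (SE, 2 arrays each) in the bpc4 bpc6 background (limma adjusted p = 0.000222) and -0.95 ± 0.28 in the wild type background (limma adjusted p = 0.109). A name with X_AT marks a probe set whose probes can also bind other transcripts.

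Probe set 252607_AT came next. It measured 59.4 and 64.2 on the triple mutant arrays, against 1294 and 2233 on the bpc4 bpc6 arrays. Intensities in lhp1-4 were 320 and 450, against 895 and 1335 on the wild type arrays. It was lower with the lesion in both backgrounds, at -4.78 ± 0.31 on the log2 scale (SE, 2 arrays each; limma adjusted p = 0.000227), against -1.53 ± 0.31 in the wild type background (limma adjusted p = 0.0362). The interaction call of each of 253161_AT, 267461_AT, 260522_X_AT and 252607_AT was lost when some single arrays were left out.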

How the data were processed

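The authors deposited 1 intensity per probe set and array, made with RMA per the submitters' processing notes. RMA's version and settings are not named by these sources. The deposited intensities were linear, from 1 to 999.7, and none reached 1000. It was inferred, with no label to say so, that larger ones had been divided by 1000 on storage. A value under 3, or one of 10 to 100 with 3 decimals, was multiplied by 1000. Other values of 10 to 100, and those of 3 to 10, were settled by their closeness (5-fold, and for the latter range at least 20-fold from the other reading) to settled values of the same probe set. Values were scaled in 1763 probe sets. In 5007 probe sets all 8 values lay between 3 and 10, so the level could not be settled and mixed readings would go unseen. These were tested as they stood, while 30 unsettled probe sets and 1 control were left out.

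Log2 restored intensities of all 8 arrays entered 1 group-means model in limma 3.58.1 (R 4.3.3) with default moderation (4 residual and 2.85 prior degrees of freedom), without the replicate number. The design had assumed gene names, which were not to be had, so its gene lists were not applied, and the 2 largest rises and 2 largest falls are named, as are the 2 highest and 2 lowest interactions among probe sets called in the comparison. The scripts were tested on simulated data. The comparison, the rules and the tests were chosen with earlier results of these data known, and the mean of both effects was added after seeing the data.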

Additional observations from a re-analysis of the deposited data

Results flagged for a closer look

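Between the bpc4 bpc6 and wild type backgrounds the lhp1-4 effect differed in 529 probe sets (limma, interaction). Leaving out 1 array at a time gave 23 to 401 such probe sets. Differences above 0 were led by 253161_AT, at 4.91 ± 0.46 on the log2 scale (SE; adjusted p = 0.00821 in limma), and by 267461_AT, at 4.78 ± 0.51 (adjusted p = 0.0113 in limma). Differences below 0 were led by 260522_X_AT, at -3.45 ± 0.40 (adjusted p = 0.0135 in limma), and 252607_AT, at -3.26 ± 0.43 (adjusted p = 0.019 in limma). Each of these calls was lost without some of the arrays. For 253161_AT this was lhp1-4 replicate 2, with an adjusted p of 0.050 that lies just above the threshold, and for 260522_X_AT it was triple mutant replicate 1 (0.054). For 267461_AT it was each lhp1-4 array and wild type replicate 1 (0.0511 to 0.0669). For 252607_AT it was each triple mutant array, each lhp1-4 array and wild type replicate 1 (0.0606 to 0.096).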

How the results depend on the processing

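The 4863 calls of the triple mutant against bpc4 bpc6 stayed within 1.5 times under 16 of 17 alternatives, with 3540 when only the 4 arrays compared were in the model, and ran from 2845 to 5021 when each array was left out. Interaction calls ran from 438 to 774 under the alternatives that kept all arrays and from 23 to 401 when each array was left out. The 1366 calls of lhp1-4 against wild type ran from 289 to 1832 when each array was left out, with falls of 101 and 124 without lhp1-4 replicates 1 and 2, 260 and 1001 without wild type replicates 1 and 2 and 564 with all arrays. Calls on the mean of both effects ran from 3311 to 6073. Leaving out an array also lowers the degrees of freedom. Centring each array on its median gave 727 rises and 898 falls of lhp1-4 against wild type, in place of 802 and 564. On the values as deposited the comparison gave -4.33 for 253161_AT and 3.92 for 258419_AT, and the interaction gave -5.06 for 253161_AT, -5.19 for 267461_AT and 1.73 for 252607_AT, since scaled and unscaled values are then mixed. Replicate numbers do not pair the samples by any label. With the replicate block the calls were 5006 for the comparison, 566 for the interaction, 1397 for lhp1-4 against wild type and 5634 for the mean effect, and replicate differences of the triple mutant and bpc4 bpc6 correlated at 0.231 across probe sets. Of the 5007 probe sets of unsettled level 0.779% rose and 1.44% fell in the triple mutant, with a median standard error of 0.10. Interaction calls below 0 numbered 312 in place of 180 when only probe sets with a settled level and a mean intensity of at least 50 were tested.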

Other observations

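Shares of called probe sets differed by the kind of probe set. Of the 934 tested with a name ending in S_AT, which marks probes shared by several transcripts, 7.49% rose and 7.82% fell in the triple mutant against bpc4 bpc6. Of the 21656 with a plain name 10.7% rose and 11.1% fell, and of the 126 ending in X_AT 1 rose and 4 fell. Probe sets with scaled values, which are the brightest, had calls most often, with 20.2% rising and 22.3% falling of 1763.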
